A study of Mus musculus with 28 samples.

Results

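P2 purinergic receptors are the cell-surface receptors for extracellular nucleotides, and 9 of their genes were followed through the conversion of Pre-B cells into macrophages. The members were taken by symbol from the deposited expression table of 55450 genes: P2rx1, P2rx3, P2rx4, P2rx7, P2ry2, P2ry6, P2ry12, P2ry13 and P2ry14. The table holds 16 genes with P2 receptor names in all, and the other 7 are described as a list. These 7 were taken by name and not by ligand, so the list may hold receptors for other ligands. P2rx3 was chosen by its measured TPM after 1h and 48h, so its values are given as a description with no test. Every count of members called for expression is over the other 8. Counts of promoter contacts include P2rx3.

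P2X receptors are ATP-gated cation channels built from 3 subunits, and P2Y receptors are G protein-coupled receptors for ATP, ADP, UTP, UDP or UDP-sugars. In macrophages P2X7 is known for opening on high extracellular ATP and feeding the NLRP3 inflammasome, P2X4 for calcium entry at lower ATP, P2Y2 for sensing ATP and UTP, and P2Y6 for sensing UDP. P2Y12, P2Y13 and P2Y14 couple to Gi proteins. P2X3 is best known from sensory neurons, and P2X1 from platelets and smooth muscle.

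C10 cells are a mouse Pre-B cell line, 1 line throughout, derived from HAFTL cells. They carry a transgene for C/EBPαER, rat C/EBPα joined to the hormone-binding part of the estrogen receptor, which β-estradiol sends to the nucleus. RNA-seq libraries were made from uninduced cells (0h) and after 1h, 12h and 48h with 100 nM β-estradiol, 10 nM IL-3 and CSF-1, with 3 libraries labelled as biological replicates at each time point. All groups carry the transgene, and the 0h cells had none of the 3 additions, so estradiol and the cytokines cannot be told apart. Promoter Capture Hi-C (PCHi-C), which lists chromatin contacts of promoter-bearing restriction fragments, was deposited as 1 list per time point from 2 merged replicates, so its counts have no replicate check.

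Expression is given as TPM (transcripts relative to the total of the library), which is corrected for transcript length and so can be compared between genes, but keeps no record of depth. How many reads lie behind a low TPM is therefore unknown. From 70.3% to 82.9% of each library's TPM fell on 2 ribosomal RNA genes, AY036118 and CT010467.1, a share that differed between libraries. The median log2 fold change over the 16415 genes tested was 0.59 (1h), 0.34 (12h) and -0.18 (48h) against 0h. Values after median-of-ratios scaling, which brings these medians to between 0.02 and 0.07, stand beside each result they alter. All 9 Pre-B markers tested were lower after 48h than before induction, and 7 of 8 macrophage markers tested were higher. Of all genes tested, 23.1% were called lower and 13.5% higher in that comparison. Macrophage markers at or near 0 TPM at 0h could not be called lower. Adgre1, a defining macrophage gene, was not among those tested because its level was too low. Summed Pre-B markers ran from 225 to 263 TPM at 0h and from 27.2 to 38.8 after 48h, and summed macrophage markers from 3.65 to 5.11 at 0h and from 191 to 269 after 48h. Neutrophil markers moved too: of 6, 2 were tested (Camp and S100a8), both were called higher after 12h and after 48h, and Mpo and S100a9 were listed at 0 in all 12 libraries. Of all genes tested, 17.7% were called higher after 12h and 13.5% after 48h. Camp and S100a8 reached the mean of 0.1 TPM needed for a test only through their 12h and 48h libraries. Neither could be called lower, so nothing is read from this count. Their summed level was at most 0.22 TPM at 0h and 1h, from 8.32 to 13.7 after 12h and from 1.33 to 3.43 after 48h. Lower numbers of a cell type and less RNA per cell cannot be told apart in these bulk libraries.

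The RefSeq promoter windows (GRCm38.p6) of 3 members that were higher after induction are shown first, because their fragments are followed below in the PCHi-C lists. Each runs 5′ to 3′ on the gene's strand from 250 bases before the start site to 30 after it. Capitals mark a match, on either strand, to GAGGAA, a core of the sequence bound by the macrophage factor PU.1, or to TTGCNNAA, a core of the sequence bound by C/EBP factors. The P2rx7 window is chr5:122643677-122643956 (plus strand), the P2rx4 window chr5:122707294-122707573 (plus strand) and the P2ry2 window chr7:101011969-101012248 (minus strand).
P2rx7: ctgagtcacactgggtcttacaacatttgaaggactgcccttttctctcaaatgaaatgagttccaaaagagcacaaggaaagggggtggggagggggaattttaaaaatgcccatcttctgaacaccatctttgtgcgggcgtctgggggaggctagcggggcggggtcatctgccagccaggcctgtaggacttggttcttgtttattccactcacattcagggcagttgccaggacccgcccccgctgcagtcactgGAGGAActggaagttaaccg
P2rx4: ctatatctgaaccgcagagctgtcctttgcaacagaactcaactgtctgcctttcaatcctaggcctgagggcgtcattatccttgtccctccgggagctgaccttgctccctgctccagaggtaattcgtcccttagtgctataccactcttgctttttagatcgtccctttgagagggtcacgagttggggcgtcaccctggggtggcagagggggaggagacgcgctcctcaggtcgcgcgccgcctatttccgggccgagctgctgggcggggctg
P2ry2: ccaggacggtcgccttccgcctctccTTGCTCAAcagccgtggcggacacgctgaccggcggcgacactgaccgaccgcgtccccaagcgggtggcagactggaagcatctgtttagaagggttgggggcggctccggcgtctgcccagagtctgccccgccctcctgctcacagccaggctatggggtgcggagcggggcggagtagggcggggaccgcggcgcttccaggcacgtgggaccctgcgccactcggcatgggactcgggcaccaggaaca
The P2rx7 window held 1 GAGGAA, whose first base is base 11 after the start site, and a second RefSeq P2rx7 window held 1 on the other strand. The P2ry2 window held 1 TTGCNNAA match, starting 224 bases before the start site, and the P2rx4 window held neither. Over all 32851 RefSeq promoter windows of 300 bases, 10.8% held TTGCNNAA and 28.3% held GAGGAA. RefSeq windows were matched for 7 of the 9 members, and P2rx3 and P2ry6 had none. Among the other windows, both motifs were found for P2ry14, TTGCNNAA for P2ry12, GAGGAA for P2ry13 and neither for P2rx1. A match is a description of the letters and not a binding site.

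At 0h the order of mean levels was P2rx3 (3.21 TPM), P2rx4 (1.58), P2rx7 (0.913), P2ry13 (0.303), P2ry12 (0.237), P2ry14 (0.117), P2ry2 (0.0767), P2ry6 (0.03) and P2rx1 (0.0167). The libraries of P2rx3 and P2rx4 did not overlap, nor did those of P2rx4 and P2rx7 or of P2rx7 and P2ry13, whereas from P2ry13 down each member overlapped with the next lower one. At 48h the order was P2rx4 (4.08 TPM), P2rx7 (2.41), P2ry6 (1.22), P2ry2 (1.09), P2ry13 (0.383), P2ry14 (0.287), P2rx3 (0.277), P2ry12 (0.133) and P2rx1 (0.01). There P2ry6 overlapped with P2ry2, and P2ry13, P2ry14, P2rx3 and P2ry12 overlapped in turn, while the other neighbours did not. P2rx3 thus went from the highest member at 0h to the seventh, and all members stayed below 16 TPM in every library.

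**Figure D1:**
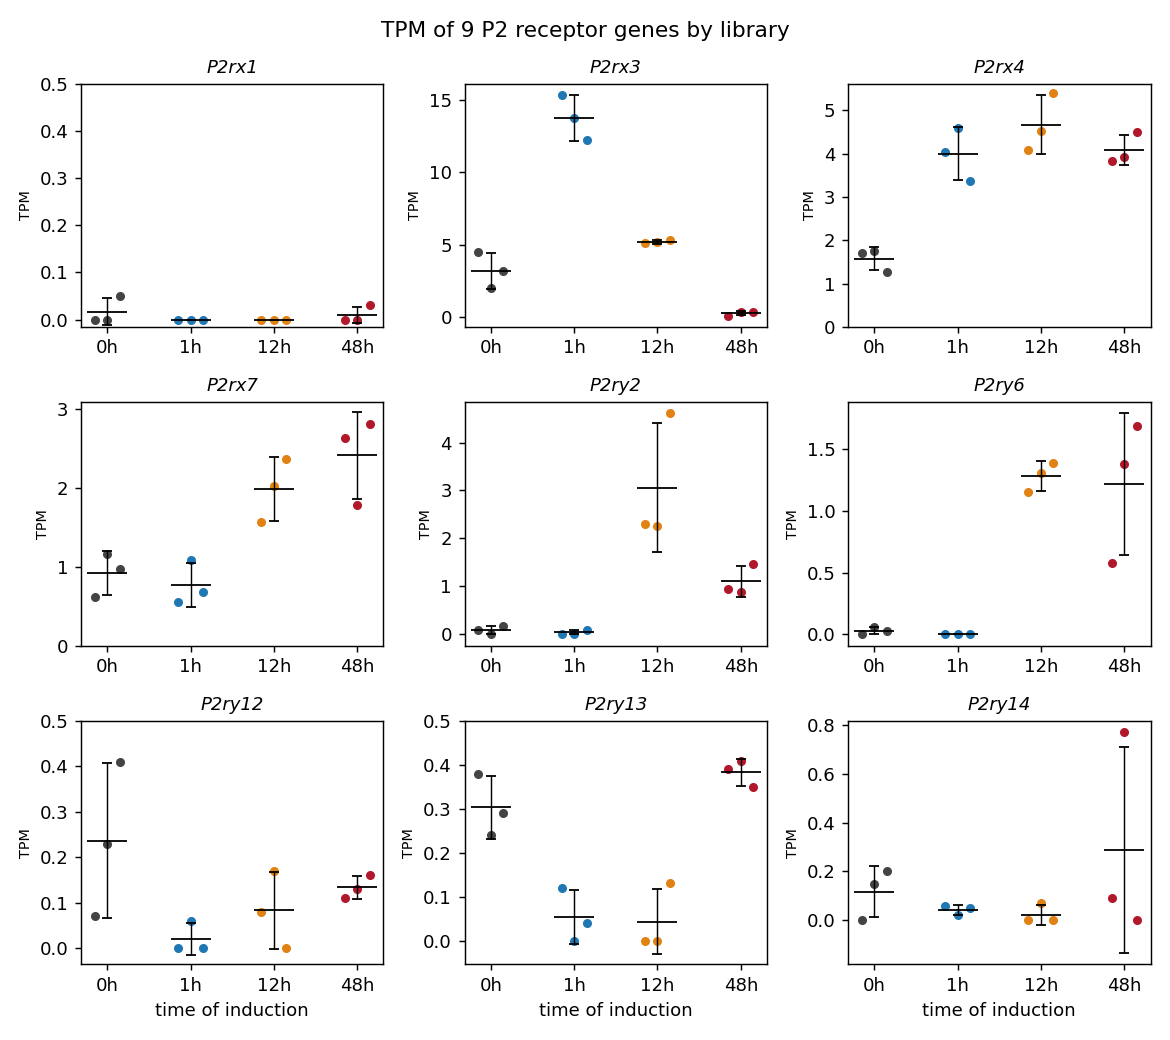
TPM of the 9 genes in each library at 0h, 1h, 12h and 48h of induction, with the mean as a dash and the SD as a bar (n = 3 libraries). Each panel has its own vertical axis: P2rx3 peaks after 1h between 12.2 and 15.3 TPM, P2rx4 is above its 0h libraries at all later times, and P2ry2 and P2ry6 are near 0 until 12h.

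P2rx3 encodes the P2X3 channel subunit. It lies on chromosome 2 (84998583 to 85037462, minus strand, GRCm38). Its TPM was 4.47, 2.00 and 3.17 before induction, 15.34, 13.74 and 12.19 after 1h, 5.09, 5.16 and 5.31 after 12h, and 0.10, 0.38 and 0.35 after 48h (replicates 1, 2 and 3). The 1h libraries lay above all others, the 12h libraries lay above the 0h libraries, and the 48h libraries lay below all others. The mean was 4.28 times that of 0h after 1h, 1.61 times after 12h and 0.0861 times after 48h. On the log2(TPM + 0.1) scale the difference from 0h was 2.13 after 1h, 0.74 after 12h and -3.17 after 48h, against 1.48, 0.42 and -2.91 under median-of-ratios scaling.

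P2rx3 overlaps Ssrp1, which encodes a subunit of the histone chaperone FACT and runs on the opposite strand (chromosome 2, 85037234 to 85047109), by 229 bp at their 5′ ends. Exons of both genes share 51 bp, which is 1.83% of the exonic length of P2rx3. The library kit does not mark strand, so reads there cannot be assigned to either gene. Ssrp1 had 32.0, 26.5 and 27.3 TPM before induction, 39.8, 40.3 and 36.4 after 1h, 14.2, 11.9 and 19.8 after 12h and 4.38, 4.80 and 4.47 after 48h. Its 12h libraries lay below those of 0h, unlike those of P2rx3. Its part in the P2rx3 values was not tested. Ssrp1 was lower after 48h by a log2 fold change of -2.62 (SE, the standard error, 0.18, BH-adjusted p = 5.12e-07, limma), against -2.22 under median-of-ratios scaling. Of 5 sensory neuron markers, 4 were listed at 0 in all 12 libraries, and the summed level was at most 0.02 TPM, so the defining neuronal genes were at or near 0 where P2rx3 was highest.

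**Figure D2:**
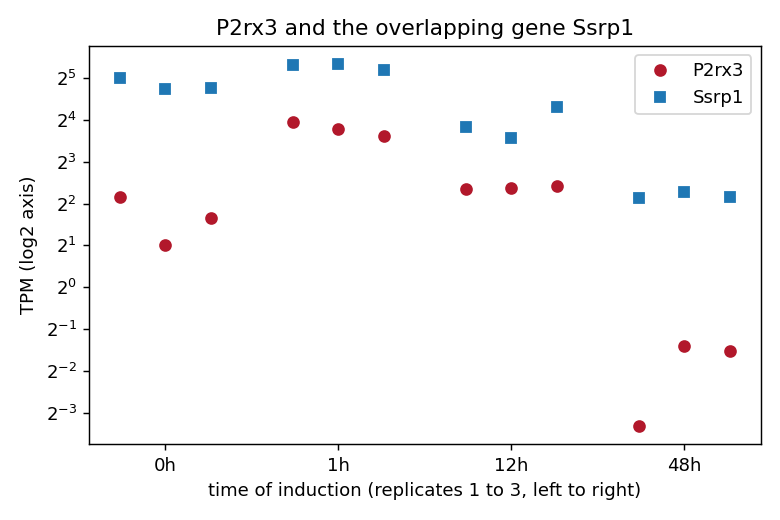
TPM of P2rx3 and of Ssrp1, which overlaps it on the other strand, in each of the 12 libraries on a log2 axis. At 12h P2rx3 lies between 5.09 and 5.31 TPM, above its 0h libraries, while Ssrp1 lies between 11.9 and 19.8, below its 0h libraries.

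Of the 8 members other than P2rx3, 7 averaged 0.1 TPM or more and were tested, and P2rx1 was not. Genes were called at an adjusted p under 0.05 (limma, BH, the Benjamini-Hochberg method over all 16415 genes) and a log2 fold change beyond 1 in either direction. At 1h, P2rx4 was higher and P2ry13 lower than before induction, while 16.7% of all genes tested were called higher and 1.08% lower. At 12h, P2rx4, P2rx7, P2ry2 and P2ry6 were higher and P2ry13 lower, against 17.7% and 5.75% of all genes. At 48h, P2rx4, P2rx7, P2ry2 and P2ry6 were higher and none was lower, against 13.5% and 23.1% of all genes. P2ry2 and P2ry6 (means of 0.0767 and 0.03 TPM at 0h) reached the mean of 0.1 TPM only through their 12h and 48h libraries. Neither could be called lower than 0h. The 1h and 48h comparisons are those by which P2rx3 was chosen, and nothing is read from the shares of any of the 3 comparisons. The 3 comparisons share the 0h libraries.

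P2rx4 encodes P2X4, and its transcript was the most abundant of the members at 48h. Its TPM was 1.71, 1.75 and 1.27 before induction, 4.03, 4.60 and 3.37 after 1h, 4.08, 4.52 and 5.41 after 12h, and 3.83, 3.93 and 4.49 after 48h. All 9 induced libraries lay above the 3 uninduced ones, and the 1h, 12h and 48h libraries overlapped each other. The log2 fold change was 1.29 after 1h (SE 0.20, BH-adjusted p = 0.00113, limma), 1.51 after 12h (BH-adjusted p = 0.000172, limma) and 1.33 after 48h (BH-adjusted p = 0.000189, limma). After median-of-ratios scaling the differences were 0.65, 1.19 and 1.74, so that the 1h value no longer passed the fold threshold and the largest stood after 48h. From 1h to 12h the change was 0.22 (BH-adjusted p = 0.464, limma), and from 12h to 48h it was -0.18, which became 0.55 after that scaling.

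P2rx7, next to P2rx4 on chromosome 5, encodes P2X7. Its TPM was 0.61, 1.16 and 0.97 before induction, 0.55, 1.08 and 0.68 after 1h, 1.56, 2.02 and 2.36 after 12h, and 2.63, 1.78 and 2.81 after 48h. The 12h and 48h libraries lay above all of 0h and 1h, and 0h and 1h overlapped. The log2 fold change was -0.23 after 1h (BH-adjusted p = 0.618, limma), 1.06 after 12h (SE 0.31, BH-adjusted p = 0.0239, limma) and 1.32 after 48h (SE 0.31, BH-adjusted p = 0.00457, limma). The 12h call was lost after median-of-ratios scaling (0.74, BH-adjusted p = 0.0988, limma), and also without 0h replicate 1 (0.82), 12h replicate 2 (1.04) or 12h replicate 3 (0.93). The 48h value was 1.72 after that scaling, and the 12h and 48h calls were both lost when replicate 3 was left out at every time point (0.99, BH-adjusted p = 0.188, and 1.26, BH-adjusted p = 0.0792, limma). P2rx7 was also higher after 12h than after 1h by 1.29 (BH-adjusted p = 0.0123, limma), a call lost without 1h replicate 1 (1.10) or without replicate 3 at every time point (1.10), in a comparison in which 5.49% of all genes were called higher and 10.6% lower.

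P2ry2 encodes P2Y2, a Gq-coupled receptor. Its TPM was 0.07, 0 and 0.16 before induction, 0, 0 and 0.08 after 1h, 2.30, 2.25 and 4.61 after 12h, and 0.93, 0.88 and 1.46 after 48h. The 12h libraries were the highest and did not overlap with those of 48h, and both lay above all of 0h and 1h. The log2 fold change was 4.18 after 12h (SE 0.44, BH-adjusted p = 3.49e-05, limma) and 2.83 after 48h (SE 0.44, BH-adjusted p = 0.000259, limma). The change from 12h to 48h was -1.36 (BH-adjusted p = 0.0306, limma), in a comparison in which 3.55% of all genes were called higher and 23.8% lower, against -0.66 (BH-adjusted p = 0.299, limma) under median-of-ratios scaling. That call was also lost without 12h replicate 3, the library at 4.61 TPM (-1.03), without 48h replicate 1 (-1.27), without 48h replicate 2 (-1.24) and without replicate 3 at every time point (-1.24, BH-adjusted p = 0.0501, limma). The summed neutrophil markers were likewise highest after 12h, a sum set mostly by Camp (mean 8.69 TPM after 12h and 0.363 after 48h). S100a8 did not peak there (1.78 and 1.96 TPM). The part of these markers in the P2ry2 values was not tested.

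P2ry6 encodes P2Y6 and neighbours P2ry2 on chromosome 7, with start sites 38217 bp apart. Its TPM was 0, 0.06 and 0.03 before induction, 0 in all 3 libraries after 1h, 1.15, 1.31 and 1.39 after 12h, and 0.58, 1.38 and 1.69 after 48h. All 12h and 48h libraries lay above all of 0h and 1h, and 12h and 48h overlapped. The log2 fold change was 3.43 after 12h (SE 0.38, BH-adjusted p = 5.10e-05, limma) and 3.25 after 48h (SE 0.38, BH-adjusted p = 2.94e-05, limma). From 12h to 48h it changed by -0.18 (BH-adjusted p = 0.756, limma), or 0.51 after median-of-ratios scaling. Both P2ry2 and P2ry6 were listed at or near 0 before 12h, so the size of their fold changes depends on the 0.1 TPM added. Both were among the genes tested only through their 12h and 48h libraries.

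The 3 Gi-coupled members lie together on chromosome 3 and were all below 1 TPM in every library. P2ry13, an ADP receptor, had 0.38, 0.24 and 0.29 TPM before induction, 0.12, 0 and 0.04 after 1h, 0, 0 and 0.13 after 12h, and 0.39, 0.41 and 0.35 after 48h. Its 1h and 12h libraries lay below those of 0h and 48h, which overlapped. The log2 fold change was -1.46 after 1h (BH-adjusted p = 0.0320, limma), -1.60 after 12h (BH-adjusted p = 0.0175, limma), and 1.87 from 12h to 48h (BH-adjusted p = 0.00610, limma). At 1h the call was lost without any one of the 3 libraries of 0h (BH-adjusted p up to 0.0823, limma), without 1h replicate 2 (-1.19), without 1h replicate 3 (-1.43) and without replicate 3 at every time point (-1.45). At 12h it was lost without 0h replicate 1 (-1.46), 12h replicate 1 or 12h replicate 2 (-1.40 each). At 48h the difference from 0h was 0.27 (BH-adjusted p = 0.659, limma).

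P2ry12, the ADP receptor known from platelets and microglia, had 0.07, 0.23 and 0.41 TPM before induction, 0, 0.06 and 0 after 1h, 0.08, 0.17 and 0 after 12h, and 0.11, 0.13 and 0.16 after 48h. Its 1h libraries lay below those of 0h, with a log2 fold change of -1.39 that did not pass (BH-adjusted p = 0.0675, limma) but passed without 0h replicate 1 (-1.81, BH-adjusted p = 0.0300, limma) or 12h replicate 3 (-1.39, BH-adjusted p = 0.0443, limma). P2ry12 averaged 0.118 TPM over the 12 libraries and reached the minimum of 0.1 only through its 0h libraries (mean 0.237). Nothing is therefore read from these passes. P2ry14, a receptor for UDP-sugars, had 0, 0.15 and 0.20 TPM before induction, 0.06, 0.02 and 0.05 after 1h, 0, 0.07 and 0 after 12h, and 0.09, 0.77 and 0 after 48h. The 0.77 TPM of 48h replicate 2 stood apart from the other 48h libraries, and no comparison of P2ry14 passed the test. The platelet genes Pf4 and Ppbp were listed at 0 in all 12 libraries, as was the microglial Sall1. The 5 platelet markers summed to between 0.14 and 1.56 TPM over all libraries, and the 5 microglia markers summed to between 14.6 and 15.6 TPM at 0h and between 4.20 and 8.70 after 48h. Their part in the values of these receptors was not tested. All 3 receptor genes lie within Med12l on the opposite strand (chromosome 3, 59005825 to 59318682), whose mean level was 0.263 TPM before induction, 0.240 after 1h, 0.0433 after 12h and 0.0267 after 48h. Exons of Med12l share 9 bp with those of P2ry12 and 0 bp with those of P2ry13 and P2ry14. Its part in their values was not tested. P2rx1 was at most 0.05 TPM in any library, and at 0 in 10 of 12.

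**Figure D3:**
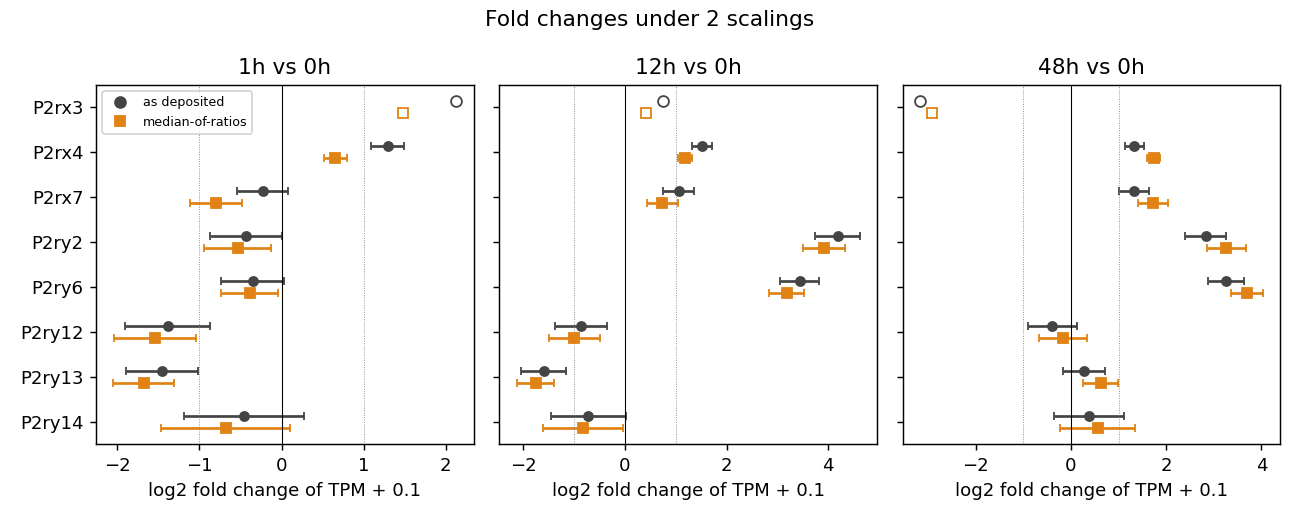
Log2 fold change of TPM + 0.1 against 0h for the 7 tested members and P2rx3, on the TPM as deposited (circles) and after median-of-ratios scaling (squares). Bars are the standard error (SE) from limma, open symbols mark P2rx3, which was not tested, and dotted lines mark a log2 fold change of 1 in either direction; P2rx4 passes the upper line after 1h with the TPM as deposited and not after scaling.

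The genes whose course over the 12 libraries was closest to each member averaging 1 TPM or more over them were found by the mean absolute difference of log2(TPM + 0.1), each gene centred on its own 0h mean, over 9330 genes. For P2rx3 these were Gpd1l (0.48), Ets1 (0.53) and Gclc (0.58), where the values are mean differences in log2 units. For P2rx4 they were Rab31 (0.13), Rchy1 (0.15) and Gm47652 (0.16), and for P2rx7 they were D1Ertd622e (0.22), Sdc4 (0.27) and Parp3 (0.27). For P2ry2 they were Tubb6 (0.38), Ikbke (0.52) and Mxd4 (0.56). These differences grow with the size of a gene's changes, and P2rx3 was chosen by its values. They are therefore not compared between members.

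Around these receptors, 53 genes in 6 lists were followed, of which 33 were tested; at 48h 7 were higher and 7 lower than before induction, in a comparison in which 13.5% of all genes tested were called higher and 23.1% lower. After median-of-ratios scaling these counts were 10 and 8. Of the 7 other genes with P2 receptor names, listed by name and not by ligand, 4 were tested and 1 was called after 48h. This was P2ry10b, named after its values were seen, with a log2 fold change of 1.80 (BH-adjusted p = 0.000497, limma). After median-of-ratios scaling P2rx2, also named after its values were seen, was called lower as well (-1.36, BH-adjusted p = 0.0387, limma). The median over the 4 was -0.55, beside -0.18 over all genes.

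Downstream of P2X7, 3 of 7 tested inflammasome genes were higher after 48h and none was lower (4 and none after median-of-ratios scaling), beside 13.5% and 23.1% of all genes, with a median of 1.12 beside -0.18 over all genes. Nlrp3, the sensor that P2X7 activity engages, had 0.123 ± 0.14 TPM (SD, n = 3) at 0h, 3.98 ± 0.67 after 12h and 4.18 ± 1.31 after 48h, a log2 fold change of 4.39 after 48h (SE 0.51, BH-adjusted p = 2.75e-05, limma). Il18, a cytokine released through this complex, rose by 3.03 (BH-adjusted p = 0.000290, limma). Il1b, the other main cytokine, was listed at 0 in all 3 libraries of 0h and stood at 1.40 TPM after 1h, 26.7 after 12h and 33.5 after 48h (BH-adjusted p = 2.22e-10 after 48h, limma). Casp1, which encodes the caspase of the complex, was at most 0.10 TPM in any library and was not tested.

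Of 14 genes for G proteins, phospholipase C and inositol trisphosphate receptors, 10 were tested, and after 48h 1 was higher and 1 lower (3 and 1 after median-of-ratios scaling), beside 13.5% and 23.1% of all genes. Gnaq, which encodes the Gq subunit that P2Y2 and P2Y6 signal through, was higher after 48h by 1.53 (BH-adjusted p = 2.77e-05, limma), with 2.10 ± 0.34 TPM (SD, n = 3) at 0h and 6.20 ± 0.34 after 48h. Itpr3, an inositol trisphosphate receptor, had a log2 fold change of -1.83 (BH-adjusted p = 0.000441, limma). The median over the list was -0.09, beside -0.18 over all genes.

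Among the genes that supply and remove the ligands, 2 of 4 tested ATP release genes were lower after 48h and none was higher, beside 23.1% and 13.5% of all genes, with a median of -1.69 beside -0.18 over all genes. These were Panx1, a large-pore channel (log2 fold change -2.09, BH-adjusted p = 0.00193, limma), and Slc17a9, the vesicular nucleotide transporter (-3.09, BH-adjusted p = 3.51e-05, limma). Of 9 nucleotide-hydrolysing ectoenzymes 2 were tested. Alpl, an alkaline phosphatase, fell from 14.8 ± 1.8 TPM (SD, n = 3) to 0.13 ± 0.15, and Entpd1, which degrades ATP and ADP, was higher by 1.43 (BH-adjusted p = 0.0275, limma). Of 6 tested genes for adenosine receptors and handling, 1 was higher and 3 were lower, beside 13.5% and 23.1% of all genes, with a median of -0.89 beside -0.18. Slc29a3, a nucleoside transporter of lysosomes, was higher by 1.96 (BH-adjusted p = 4.23e-05, limma), while Adk and Ada, which clear adenosine, and the transporter gene Slc29a2, named after its values were seen, were lower, with log2 fold changes of -1.60, -1.73 and -1.63.

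In the PCHi-C lists, 11 baited fragments held a start site of a member, and every member, P2rx3 included, had at least 1. Their interactions, with a pair between 2 of these baits counted once, numbered 124 before induction, 125 after 1h, 128 after 12h and 95 after 48h, of 138769, 137836, 131598 and 144072 in the whole lists. Of the baits with at least 10 interactions in either list, 4 of 8 member baits had at least 2-fold more after 12h than at 0h and 2 had at least 2-fold fewer, against 12.1% and 13.8% of the 6547 such baits in the lists. At 48h 1 of 5 had more and 3 had fewer, against 16.9% and 16.0% of 6750 baits. At 1h 2 of 6 had more and 0 fewer, against 9.42% and 9.08%. Each of the 4 baits with more after 12h had at most 4 interactions at 0h. They met the minimum of 10 only through the 12h list, and meeting it already made them at least 2-fold higher. The same holds for the baits with more after 1h and after 48h. The P2rx3 bait with fewer after 12h (25 to 8) met that minimum only through the 0h list. So did the adjoining P2rx3 baits with fewer after 48h (25 to 5 and 11 to 1), and P2rx3 was chosen by its values. Nothing is therefore read from the counts of baits with more or with fewer interactions. Several of these baits share a gene or a neighbourhood, so they are not independent of each other.

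**Figure D4:**
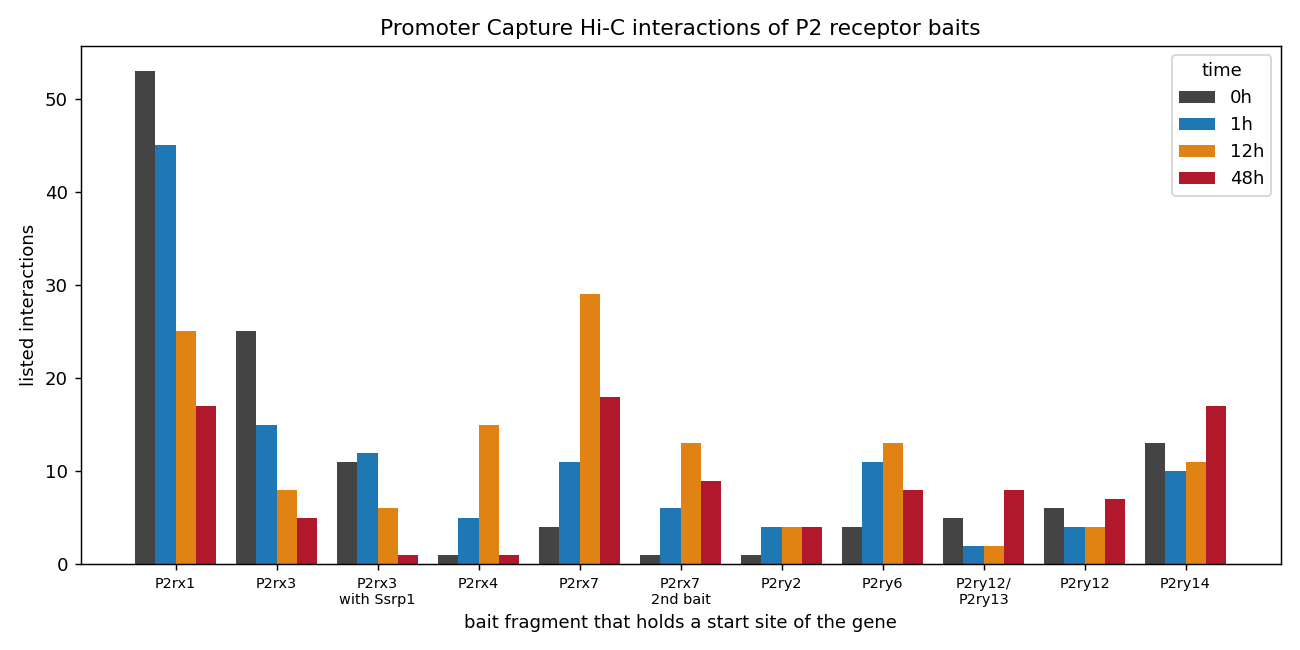
Number of listed interactions at each time point for the 11 baited fragments that hold a start site of a member, from 1 list per time point with no replicate check. The P2rx1 and P2rx3 baits fall from 53 to 17 and from 25 to 5 between 0h and 48h, while the P2rx7 bait goes from 4 to 29 after 12h and 18 after 48h.

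The bait at the P2rx7 start site, which holds the promoter window printed above (chromosome 5, 122635276 to 122645700), had 4 listed interactions before induction, 11 after 1h, 29 after 12h and 18 after 48h. All 4 partners of 0h were still listed after 12h and after 48h, and they made up 13.8% and 22.2% of those lists. At 0h all partners lay on the lower-coordinate side, with a median distance of 186 kb and Anapc7 as the partner bait. At 12h 17 lay on that side and 12 on the other, where P2rx4 lies. A second P2rx7 bait inside the gene (122679219 to 122698414) had 1, 6, 13 and 9 interactions.

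The P2rx4 bait (chromosome 5, 122706930 to 122708227) had 1 listed interaction before induction, 5 after 1h, 15 after 12h and 1 after 48h. Its 12h partners included the bait at the P2rx7 start site, 67.1 kb away, and this pair was listed after 12h and in none of the other 3 lists. The P2rx4 and P2rx7 baits shared 9 partner fragments after 12h, which is 60.0% of the partners of P2rx4 and 31.0% of those of P2rx7. Among them were fragments with the start sites of Anapc7 and of Atp2a2, the calcium pump of the endoplasmic reticulum. At 48h, when P2rx4 RNA lay between 3.83 and 4.49 TPM, its single listed interaction was also 1 of the 18 of P2rx7.

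**Figure D5:**
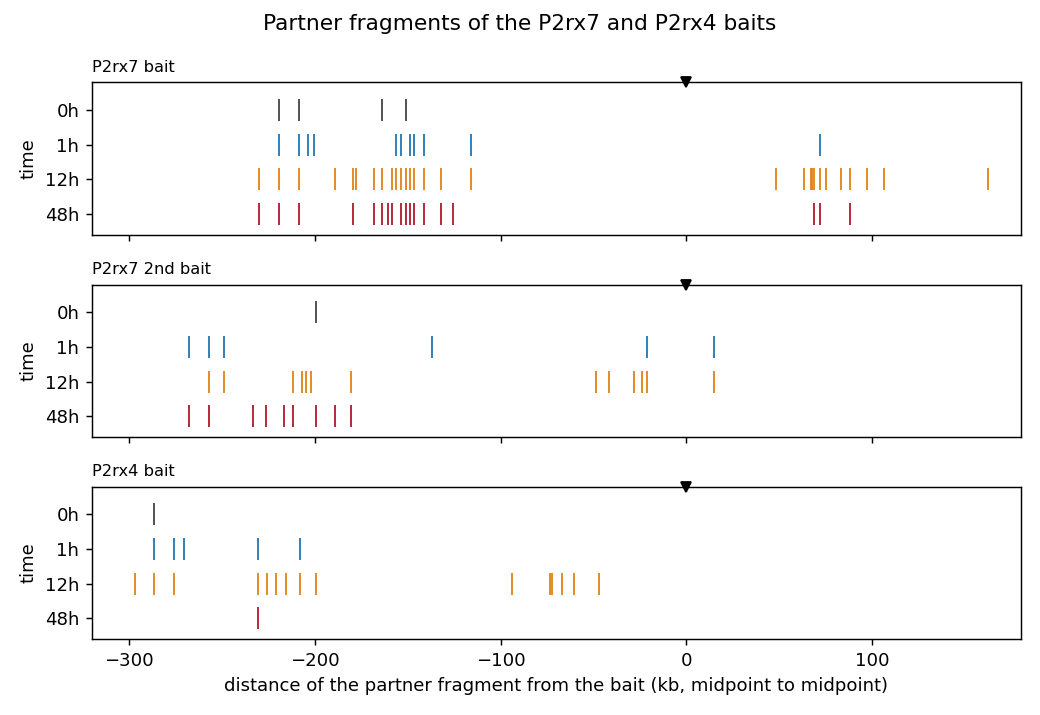
Each tick is a partner fragment of a bait, placed by its distance in kb from the bait (triangle, distance 0, negative towards lower coordinates), with a row for each time point. For the bait at the P2rx7 start site the rows go from 4 ticks at 0h to 29 after 12h, 12 of them on the side where P2rx4 lies, and the P2rx4 bait has 1 tick before induction, 15 after 12h and 1 after 48h.

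The P2rx3 bait (chromosome 2, 85033611 to 85037227) had 25, 15, 8 and 5 listed interactions at 0h, 1h, 12h and 48h. This fragment lies inside the gene and does not hold its 5′ end (85037462). It had fewer after 1h, when P2rx3 RNA was highest, than at 0h. The adjoining fragment (85037228 to 85038032), which holds that 5′ end and also the Ssrp1 start site, had 11, 12, 6 and 1. It did not have fewer after 1h. All partners listed after 12h and after 48h for the P2rx3 bait were already listed at 0h. The fragments with the start sites of Slc43a1 and Timm10, 197 kb and 203 kb away, were partner baits in all 4 lists.

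The P2rx1 bait had the most listed interactions of all members at 0h although P2rx1 RNA was at or near 0, with 53, 45, 25 and 17 at the 4 time points. All 17 partners of 48h were listed at 0h. The P2ry6 bait (chromosome 7, 100957332 to 100965516) lies inside the gene and does not hold its 5′ end (100974649). It had 4, 11, 13 and 8 interactions, and the P2ry2 bait 1, 4, 4 and 4. The only P2ry2 partner at 0h was a fragment 16.0 kb away that holds another P2ry2 start site. The fragment with the start site of Atg16l2, a relative of the autophagy gene Atg16l1, was a partner of both baits after 1h, 12h and 48h. On chromosome 3 the P2ry14 bait (59129412 to 59133243) also lies inside its gene, without the 5′ end (59153618), and had 13, 10, 11 and 17. There the P2ry12 bait had 6, 4, 4 and 7, and the bait that holds start sites of both P2ry12 and P2ry13 had 5, 2, 2 and 8. At 48h the last bait and the P2ry12 bait shared 6 partner fragments, 75.0% of the partners of the former and 85.7% of those of the latter. Many partners are adjacent fragments: counting those within 10 kb of each other once, the bait at the P2rx7 start site had 2, 4, 4 and 4 contacted regions, the P2rx4 bait 1, 3, 4 and 1, the P2rx3 bait 6, 4, 3 and 4, and the P2rx1 bait 8, 9, 7 and 5.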

How the data were processed

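The 12 RNA-seq libraries and the 4 PCHi-C lists were analysed (Hi-C was not). For RNA-seq, the authors depleted ribosomal RNA, merged technical replicates, trimmed with Trim Galore 0.6.2, mapped to mm10 with HISAT2 2.1.0 and deposited TPM from RSEM with 2 decimals. TPM keep no depth, so the precision of single values is unknown. PCHi-C replicates were merged by the authors, who called contacts by CHiCAGO (minimum score 5 in the deposited 0h list, in which the values are a score). The whole numbers of the other 3 deposited lists, taken as counts, were not used in a result.

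Genes averaging 0.1 TPM or more (16415) entered 1 limma 3.58.1 model (R 4.3.3) on log2(TPM + 0.1) with a coefficient per time point, eBayes with a trend, and Benjamini-Hochberg adjustment over all genes. Fold changes are on that scale, which understates the change of low genes. The fit was tested on simulated data. Other steps used Python 3.11.15, numpy 2.4.6 and pandas 2.3.3. Gene positions are from GENCODE M21 (GRCm38). A bait is a fragment in the first column of any list, and each fragment pair was counted once. Alternatives varied the pseudocount, filter, scaling, variance model, libraries, replicate block and thresholds.

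The members, lists and tests were chosen with earlier results of these data known. Genes named are the members, list genes called at 48h whose mean TPM reached 1 (up to 4 a list), list and marker genes that a sentence on a member turns on, genes overlapping a member, and the 3 genes closest in course to each member whose mean TPM reached 1. Adgre1, Camp, Casp1, Mpo, S100a8 and S100a9 were named after their values were seen. Protein sequences were not used here. What separates the labelled replicates is not known in detail, so p-values measure the spread between these libraries.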

Additional observations from a re-analysis of the deposited data

How the results depend on the processing

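Among the members other than P2rx3, 2 were called at 1h against 0h, 5 at 12h, 4 at 48h, 3 at 12h against 1h and 2 at 48h against 12h. Those higher numbered 1, 4, 4, 3 and 1 in that order, and those lower 1, 1, 0, 0 and 1. Of all genes tested, 16.7%, 17.7%, 13.5%, 5.49% and 3.55% were called higher, and 1.08%, 5.75%, 23.1%, 10.6% and 23.8% lower. These shares are for the main setting only, and nothing is read from the counts against them. In that order, a pseudocount of 1 gave 0, 3, 1, 2 and 0, and a log2 fold change beyond 2 gave 0, 2, 2, 2 and 0. A mean TPM of at least 1, at which P2ry6 and P2ry13 are not tested, gave 1, 3, 3, 2 and 0 (P2ry2 at 48h against 12h was then not called). A pseudocount of 0.01 gave 1 at 1h and 1 at 48h against 12h. Median-of-ratios scaling and rescaling without the 20 most abundant genes each gave 1, 4, 4, 3 and 1, and no filter and quantile normalization each gave 1 at 48h against 12h. Leaving out replicate 3 at every time point, whose library numbers differ from those of replicates 1 and 2 and whose share of ribosomal RNA was the lowest of each time point, gave 1, 4, 3, 2 and 1. Leaving out 1 library at a time gave 1 to 3 at 1h, 3 to 5 at 12h, 4 at 48h, 2 to 3 at 12h against 1h and 1 to 2 at 48h against 12h. The cause was not tested.

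P2rx4, P2ry2 and P2ry6 kept an adjusted p under 0.05 and their direction at 12h and 48h under each alternative that tested them (limma). P2ry2 and P2ry6 entered the main test only through their 12h and 48h libraries, so nothing is read from the direction they kept. With single libraries left out, P2ry14 at 48h ran from -0.51 to 1.05 (-0.10 without 0h replicate 1). At 12h against 1h, P2rx4 turned to -0.0037 without replicate 3 at every time point, and P2ry13 ran from -0.54 to 0.16 when single libraries were left out (0.06 without 12h replicate 1 or 2). At 48h against 12h, P2rx4 turned to 0.55, 0.36 and 0.48 and P2ry6 to 0.51, 0.33 and 0.54 with median-of-ratios scaling, rescaling without the 20 most abundant genes and quantile normalization. P2ry6 ran from -0.46 to 0.24 with single libraries left out, and P2ry12 to -0.0045 without replicate 3 at every time point.

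The genes called in the 6 lists at 48h numbered 14, and 6 with a log2 fold change beyond 2. The interactions summed over member baits, a pair between such baits counting for each, were 124, 125, 130 and 95 at 0h, 1h, 12h and 48h, or 38, 50, 42 and 37 with partners within 10 kb counted once, and 23 at 0h with a score of at least 10. The replicate block left the member counts at 2, 5, 4, 3 and 2. Deviations of same-numbered libraries correlated at -0.0123 to 0.257, above 0.1 in 7 of 18 pairs, 5 of them among the 6 pairs of replicate 3. Those of differently numbered libraries correlated at -0.181 to 0.110, above 0.1 in 1 of 36 pairs. In 22 of 36 comparisons of a library with another time point the highest correlation was with its own number, a hint from the data and not from the design. Since not every pair was above 0.1 and the labels tie the numbers to nothing, the samples were taken to share only a number.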
